A study of Rattus norvegicus with 2 samples.

Results

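The genes of intestinal iron handling were examined in single epithelial cells of the rat proximal jejunum. The 7 symbols were read from the gene list of the deposited matrices, namely Cybrd1, Slc11a2, Slc40a1, Heph, Tfrc, Fth1 and Ftl1, which makes 7 of 32883 listed genes. They occupied 8 rows, because Slc40a1 was listed under 2 identifiers. The row ENSRNOG00000049995 had 0 UMIs in every cell class of both rats, and every Slc40a1 value below comes from ENSRNOG00000003872. The others were ENSRNOG00000009620 (Cybrd1), ENSRNOG00000019550 (Slc11a2), ENSRNOG00000012294 (Heph), ENSRNOG00000001766 (Tfrc), ENSRNOG00000022619 (Fth1) and ENSRNOG00000031506 (Ftl1).

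Iron that is not bound in heme is reduced at the brush border, where Cybrd1 (duodenal cytochrome b) is the best known reductase, and enters the enterocyte through the metal transporter Slc11a2 (DMT1). Inside the cell it is held in ferritin, a shell of heavy (Fth1) and light (Ftl1) chains, or leaves across the basolateral membrane through ferroportin (Slc40a1), the only known cellular iron exporter, with the copper ferroxidase hephaestin (Heph) oxidizing it for loading onto transferrin. Tfrc, the transferrin receptor, takes iron up from the blood side and is a known feature of dividing cells, whereas dietary iron absorption is a known task of mature enterocytes in the upper small intestine.

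Epithelium of the proximal jejunum was taken from 2 male Sprague-Dawley rats, an outbred laboratory strain, aged 6-8 weeks and fasted overnight, and each rat gave 1 droplet-based 3′ library. The labels give 1 condition and no treatment, so the comparisons below are between cell classes of the same animals, and a difference between the rats has no replicate. Levels are given as CPM, which is the UMIs (transcripts counted once) of a gene per 1000000 UMIs of all cells of a class in 1 rat. Cells with over 5000 UMIs and at most 40% mitochondrial UMIs were clustered without any iron gene among the clustering genes, which gave 5561 classed cells in rat 1 and 1530 in rat 2.

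The classes were crypt cells (stem and cycling cells, 1157 cells in rat 1 and 30 in rat 2), enterocytes (4017 and 1126), cycling secretory progenitors (180 and 18), goblet/Paneth cells (168 and 138), enteroendocrine cells or EECs (21 and 11), tuft cells (11 and 129) and CFTR high expresser cells or CHEs (7 and 78). Enterocytes were split within each rat into early, mid and late groups of equal size, and for profiles into 10 equal bins (bin 1 at the base, bin 10 at the tip), by a villus score of base and tip genes. The score is a range, not a cell type, and 13.9% of the enterocytes of rat 1 and 13.4% of rat 2 lay within 0.1 SD of a border between these groups. The CHE, tuft and EEC values of rat 1 rest on few cells, and so do the crypt values of rat 2. Classes were named from marker genes and are cells like those named. Enterocyte markers summed to 112528 and 96100 CPM in enterocytes, goblet markers to 183683 and 282569 CPM in goblet/Paneth cells, EEC markers to 100551 and 224487 CPM in EECs, tuft markers to 2604 and 6098 CPM in tuft cells and CHE markers to 74855 and 142077 CPM in CHEs. The enterocyte markers stood at 2.57% and 2.89% of their enterocyte level in the crypt, at 3.52% and 5.91% in goblet/Paneth cells, 3.87% and 6.72% in EECs, 8.30% and 4.73% in CHEs and 16.7% and 35.0% in tuft cells. The 6 T cell and leukocyte markers summed to 262 and 828 CPM in the crypt against 22.5 and 22.4 CPM in enterocytes. In rat 1 most of that was Cd3g (229 CPM, in 77.0% of crypt cells), with Ptprc, the pan-leukocyte gene, at 1.74 CPM. In rat 2 it was Gzma (387 CPM) and Cd3g (339 CPM), with Ptprc at 38.6 CPM from 3 of 30 cells and Cd52 at 0. The libraries shared 28 barcodes of 12033 and 8252.

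Although both were labelled as proximal jejunum, the libraries stood apart in genes of intestinal position. In enterocytes Fabp6, the ileal bile acid binding protein, was at 1150 CPM in rat 1 but 0.569 CPM in rat 2. Pdx1, a transcription factor of the duodenum, was at 0.0743 CPM in rat 1 but 27.4 CPM in rat 2, and Onecut2, another proximal factor, at 0.149 and 40.6 CPM. The other proximal genes of the list differed less, with a ratio of rat 2 over rat 1 of 1.51 for Gata4, 1.37 for Lct and 0.529 for Fabp1. Of the other distal genes, Cubn was 2.90-fold and Slc10a2 2.57-fold higher in rat 1. The file headers also name different Cell Ranger versions (3.1.0 for rat 1 and 5.0.1 for rat 2), and the median enterocyte had a depth of 11985 UMIs in rat 1 but 24623 in rat 2. Rat, position, depth and software version cannot be told apart.

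Of the 7 genes, 5 had a promoter window in the RefSeq table used here (GRCr8), with 6 windows because Slc11a2 had 2 starts. Fth1 and Ftl1 had none. The 250 bases before each start were searched on both strands for ACGTG and GCGTG, the core letters of hypoxia response elements, because Epas1, which encodes a hypoxia-inducible factor and is described below, was among the iron genes that differed most between the rats. The cores share the letters CGTG, and no 2 matches below overlapped. ACGTG stood in 16.6%, GCGTG in 25.9% and either in 36.7% of 33469 windows. Of the 6 windows here 4 held either core, and these belonged to 4 of the 5 genes. The matches are shown with up to 12 bases on either side, 5′ to 3′ on the strand of the gene, with capitals for ACGTG or for CACGC, the reverse complement of GCGTG.
Cybrd1, chr3:76342343-76342368, plus strand: ggtggccacCACGCagccagagctca
Slc11a2, chr7:133417937-133417965, minus strand: gcctggcggagcCACGCctcccgatggcc
Heph, chrX:65308963-65308991, plus strand: aagtccagtgtaCACGCagaagtccactg
Tfrc, chr11:81690395-81690423, minus strand: tcccactccgcgCACGCacgagctgcgcg
Tfrc, chr11:81690333-81690361, minus strand: ctcggtaggtgtACGTGcggcaggaagtg
The Slc11a2 match lay 165 bases before its start, that of Heph 81 bases and that of Cybrd1 241 bases. The Tfrc matches lay 93 and 31 bases before the start. The Slc40a1 window and the other Slc11a2 window held neither core within these 250 bases. A match is a description of letters and not a binding site.

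Among the 7 genes, the exporter differed most between the enterocytes of the rats. Slc40a1 had 83 UMIs in the 4017 enterocytes of rat 1 (1.54 CPM) and 2904 UMIs in the 1126 enterocytes of rat 2 (110 CPM), a 71.4-fold higher level in rat 2. Of 11039 genes with at least 20 UMIs in the enterocytes of both rats together, 7 had a larger absolute log2 ratio, and the median over them was -0.25. The ratio was 80.8 in early, 355 in mid and 54.8 in late enterocytes. After thinning every cell to 5000 UMIs, 0.822% of the enterocytes of rat 1 and 39.5% of those of rat 2 had a Slc40a1 UMI (1.64% and 74.9% without thinning). Leukocyte-like cells of rat 2 with at most 10 UMIs of epithelial genes had a thinned share of 3.03% at a median of 5818 UMIs per cell, and these cells carried macrophage markers (704 CPM), a cell type known to express ferroportin. Macrophage markers summed to 0.539 and 1.86 CPM in the enterocytes, with 5 of 7 detected in each rat.

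The importer differed in the same direction by less. Slc11a2 was at 15.0 CPM in enterocytes of rat 1 against 66.9 CPM in rat 2, a 4.47-fold higher level, and 282 of the 11039 genes (2.55%) had a larger absolute log2 ratio. That ratio was 4.65 in early and 4.19 in mid enterocytes and 1.32 in late ones. Tfrc lay in the opposite direction, at 11.9 CPM (rat 1) and 3.18 CPM (rat 2). The remaining genes differed by under 2-fold over all enterocytes. Heph had 172 and 255 CPM, Fth1 16710 and 27407 CPM, Ftl1 829 and 745 CPM and Cybrd1 2.82 and 4.06 CPM, rat 1 first, as in every pair of values from here on.

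**Figure D1:**
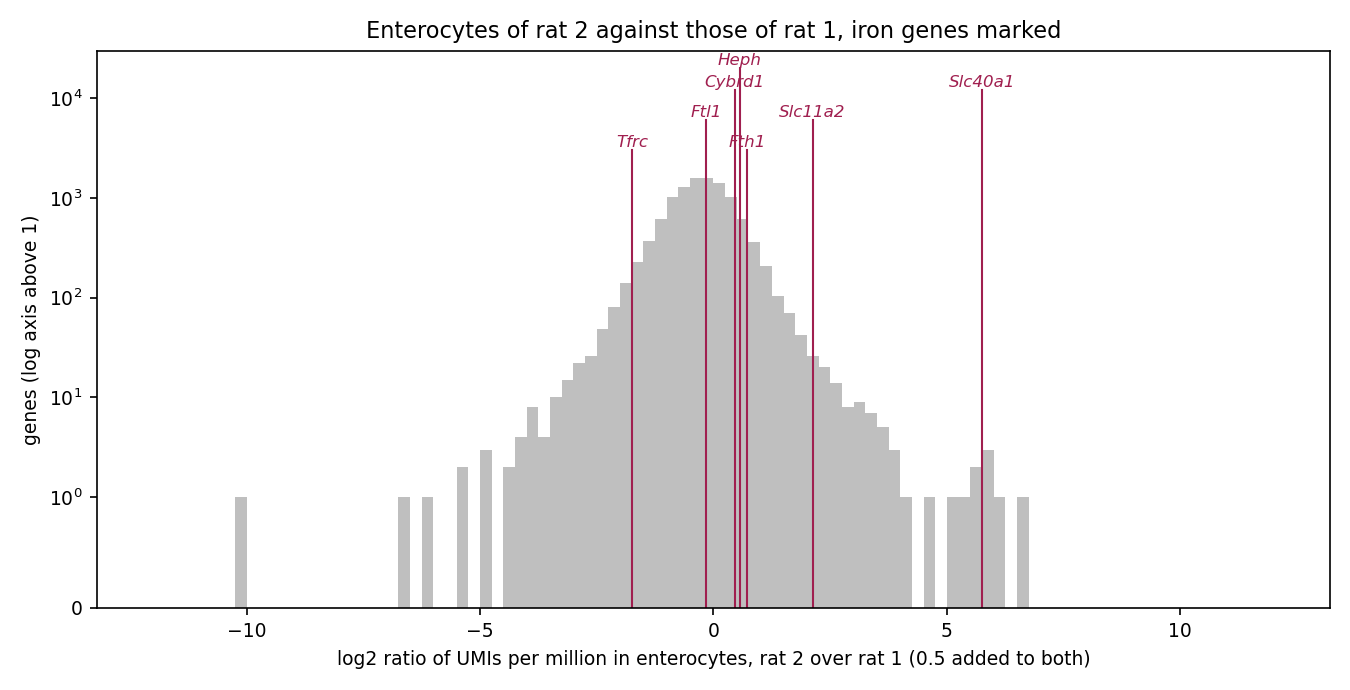
Distribution over 11039 genes of the log2 ratio of CPM in enterocytes of rat 2 over rat 1 (x axis, 0.5 CPM added to both, number of genes on the y axis, log scale above 1), with the 7 iron genes marked by lines. Slc40a1 lies at 5.76 in the right tail, Slc11a2 at 2.12 and Tfrc at -1.75, while Heph, Fth1, Cybrd1 and Ftl1 lie near the middle of the distribution.

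Regulators of iron balance were read beside these values. Epas1, a hypoxia-inducible factor known to raise transcription of iron transport genes in enterocytes, was at 5.76 CPM (rat 1) and 48.6 CPM (rat 2), an 8.43-fold higher level in rat 2. Hmox1, which opens the heme ring and frees its iron, had 8.56 and 70.8 CPM. Bmp2, a ligand of the pathway that sets hepcidin, had 3.34 and 33.1 CPM. Of the iron regulatory proteins, which bind elements in ferritin, ferroportin and transferrin receptor mRNAs, Ireb2 was 2.48-fold higher in rat 2 and Aco1 1.67-fold higher in rat 1. Ncoa4, the receptor for ferritin breakdown, was 2.25-fold higher in rat 2, and Hif1a differed by a log2 ratio of -0.16. Steap3, a ferrireductase of the transferrin cycle, was 3.63-fold higher in rat 1. Whether intestinal position, depth or software version had a part in any of these differences was not tested.

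Along the crypt to villus path Slc11a2 was highest in early enterocytes and Tfrc in the crypt, while Slc40a1 and Heph were higher in late than in early enterocytes, in both rats. Slc11a2 had 14.9 and 33.5 CPM in the crypt, 22.0 and 102 CPM in early, 14.9 and 62.5 CPM in mid, and 6.85 and 9.06 CPM in late enterocytes. Over the bins it was highest in bin 2 of both rats, at 23.7 and 113 CPM, and lowest in bin 10, at 3.13 and 1.12 CPM, the last of which rests on 2 UMIs. Leukocyte-like cells of rat 2 had 22.9 CPM, above its late enterocytes. The early, mid and late ranges of the rats overlapped, since early cells of rat 1 lay below mid cells of rat 2, but the order early, mid, late held within each rat with counting intervals that did not overlap.

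Cybrd1 was close to the limit of detection. It had 1.35 CPM in the crypt and 1.67, 3.28 and 3.67 CPM in the early, mid and late enterocytes of rat 1, and 3.35 CPM (2 UMIs), 0.888, 2.91 and 11.5 CPM in those of rat 2. Its highest bin was bin 7 in rat 1 (4.55 CPM) and bin 9 in rat 2 (12.8 CPM). Leukocyte-like cells of rat 2 without epithelial transcripts had 1.31 CPM (2 UMIs), so early enterocytes of rat 2 were no higher than that background. Secretory progenitors had 1.77 and 0 CPM, goblet/Paneth cells 3.30 and 2.43 CPM, and EECs, tuft cells and CHEs between 0 and 2.84 CPM. Cybrd1 did not pass the filter on low counts, which leaves 6 of the 7 genes tested. Without that filter it was higher in late than in early enterocytes (3.19 ± 0.84 on the log2 scale, edgeR, adjusted p = 0.0035). The early value of rat 2 rests on 10 UMIs. The fit without the filter also called many more of all genes in this comparison, with the numbers given in the last section. In the filtered fit none of the 6 genes tested passed there.

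Slc40a1 was higher in each more mature class of rat 2, with 10.1 CPM in the crypt and 42.2, 116 and 224 CPM in early, mid and late enterocytes. The 6 crypt UMIs all came from cells that also had a UMI of Ptprc, Cd3e, Cd8a or Gzma, and the 22 crypt cells without these leukocyte UMIs had 0. The counting intervals of the 3 enterocyte groups did not overlap. In rat 1 it had 1.18, 0.522, 0.328 and 4.10 CPM in the same classes. Of its 83 enterocyte UMIs there, 59 came from bin 10, where the level was 13.2 CPM against at most 0.975 CPM in the other bins. The highest bin of rat 2 was bin 9, at 249 CPM, and its lowest was bin 1, at 34.2 CPM. All bins of rat 1 lay below all bins of rat 2.

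Heph, the partner of the exporter, had 17.2 and 33.5 CPM in the crypt. It had 74.7 and 188 CPM in early, 189 and 302 CPM in mid, and 268 and 310 CPM in late enterocytes. Crypt and enterocyte values did not overlap. The counting intervals of mid and late cells of rat 2 overlapped, and over the bins Heph was highest in bin 10 of rat 1 (288 CPM) and in bin 7 of rat 2 (345 CPM).

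Tfrc showed the reverse order, with its highest level in the crypt, at 73.0 and 72.1 CPM. The rats were nearly equal there only in these CPM scaled by library totals. Scaled by TMM, the default of edgeR, the crypt levels were 58.6 and 48.0 CPM. The Olfm4-led, Top2a-led and Hmgb2-led crypt clusters of rat 1 had 72.6, 73.9 and 72.5 CPM, with counting intervals that overlapped. Early enterocytes had 26.6 and 6.93 CPM, mid enterocytes 5.84 and 0.671 CPM, and late enterocytes 1.34 and 0 CPM. With 0 UMIs in the late enterocytes of rat 2, the level there was at least 14.3-fold lower than in early enterocytes, taking 3 UMIs per class as the floor. The order crypt, early, mid, late held in both rats, and leukocyte-like cells of rat 2 had 15.0 CPM.

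The ferritin chains differed from each other along the villus of rat 2. Fth1 had 3571 and 2958 CPM in the crypt, 12114 and 28620 CPM in early, 18585 and 31709 CPM in mid, and 19993 and 18976 CPM in late enterocytes. It was highest in bin 10 of rat 1 (20325 CPM) but in bin 4 of rat 2 (34190 CPM), where bin 10 had the lowest level (15357 CPM). These CPM are scaled by library totals. Scaled by TMM, Fth1 of rat 2 had 34506, 46318 and 37128 CPM in early, mid and late enterocytes, so late lay above early. Ftl1 had 718 and 583 CPM in the crypt, 705 and 533 CPM in early, 750 and 850 CPM in mid, and 1064 and 982 CPM in late enterocytes, with bin 10 highest in both rats at 1433 and 1012 CPM. In rat 2 the median depth went from 29416 UMIs per cell in bin 1 to 14772 in bin 10 and the median mitochondrial share from 22.0% to 28.1%, while rat 1 had 11629 and 10279 UMIs and 13.3% and 11.2%. The part of depth and mitochondrial share in these profiles was not tested. Near-identical copies of both ferritin genes are known in rodent genomes, so the split of their UMIs between copies by the counting is uncertain.

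**Figure D2:**
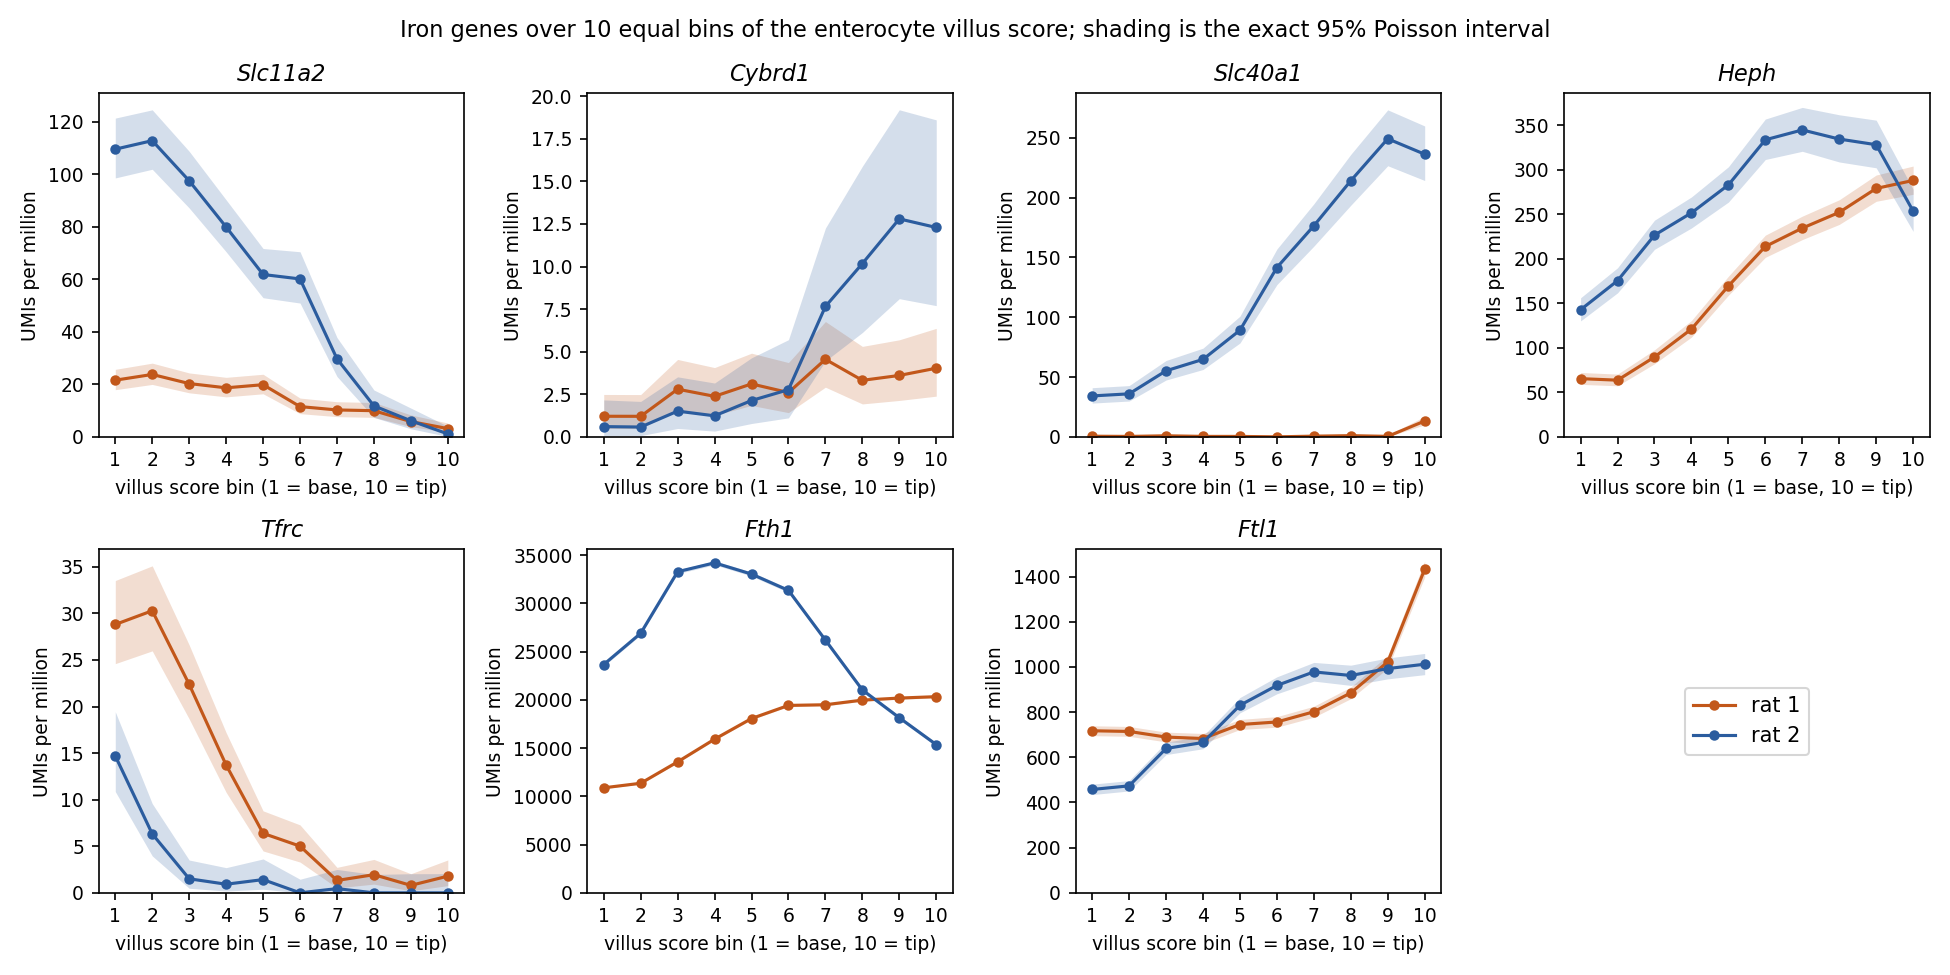
CPM of each gene (y axis, linear from 0) over 10 equal bins of the villus score of enterocytes (x axis, 1 at the base, 10 at the tip) in rat 1 and rat 2, with exact 95% Poisson intervals as shading. In these CPM scaled by library totals, Slc11a2 and Tfrc are highest in bins 1 and 2, and Heph and Ftl1 are higher at the tip than at the base. Slc40a1 reaches 249 CPM in rat 2 and 13.2 CPM in rat 1, and Fth1 is highest in bin 4 of rat 2 and in bin 10 of rat 1.

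Enterocytes were then compared with crypt cells over both rats. UMIs were summed per rat and class and tested by the quasi-likelihood test of edgeR over 10165 genes, with p-values adjusted by Benjamini-Hochberg and a threshold of 0.05. Of the 6 genes tested, 4 passed, beside 44.6% of all genes. Heph was higher in enterocytes by 4.08 ± 0.75 on the log2 scale (SE, adjusted p = 0.0007). Fth1 was higher by 3.65 ± 0.69 (adjusted p = 0.00084), and Tfrc was lower, with a log2 fold change of -3.52 ± 0.64 (adjusted p = 0.00063). Each of the 3 had the same direction in both rats, at 3.79 and 4.11 for Heph, 2.86 and 4.30 for Fth1 and -2.87 and -4.89 for Tfrc.

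Ftl1 was also called, at 1.18 ± 0.39 (adjusted p = 0.023), but that call depended on the scaling. TMM, edgeR's default scaling, moved the fold changes of this comparison up by 0.87 against scaling by library totals, under which Ftl1 had a difference of 0.29 (adjusted p = 0.55). In CPM, which are scaled by totals, Ftl1 was at 829 against 718 in rat 1 and at 745 against 583 in rat 2. Scaling by totals also changed the direction of all calls, from 43.4% higher in enterocytes to 18.2%. Slc11a2 was not called, at 1.22 ± 0.70 (adjusted p = 0.17), and 0.22 under totals. Slc40a1 had 5.09 ± 2.47 (adjusted p = 0.11), with 0.35 in rat 1 and 4.47 in rat 2. With the rat as a block, which removes a constant difference between the rats, 56.6% of all genes were called and Slc40a1 passed, at 2.49 ± 0.93 (adjusted p = 0.031). With the block and scaling by totals together it did not (adjusted p = 0.12). Without the crypt cells that had a leukocyte UMI, an alternative chosen after seeing the data that left 987 and 22 crypt cells, 4 of 6 genes passed by edgeR, with Heph at 4.27, Fth1 at 3.62, Tfrc at -3.56 and Ftl1 at 1.17, and Slc40a1 had 6.46 (adjusted p = 0.056).

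Between late and early enterocytes none of the 6 genes passed the test without a block, where 1.73% of all genes did. Of the 6, 4 had an unadjusted p under 0.05, a rule whose share over all genes was not counted. DESeq2 called 2, but it also called more of all genes than edgeR, with the numbers given in the last section. With the rat as a block 5 passed, beside 26.8% of all genes. Lower in late enterocytes were Tfrc, at -3.79 ± 0.68 on the log2 scale (edgeR, adjusted p = 0.00088), and Slc11a2, at -2.04 ± 0.55 (0.012). Higher were Slc40a1, at 3.14 ± 0.91 (edgeR, adjusted p = 0.018), Heph, at 1.94 ± 0.43 (0.0037), and Ftl1, at 1.40 ± 0.36 (0.0089).

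Fth1 was not called with the block (0.57 ± 0.52, adjusted p = 0.44), and its sign turned under scaling by library totals, at -0.06. Each of these 6 genes had the same direction in both rats under TMM, although Fth1 differed in size, at 1.36 in rat 1 and 0.11 in rat 2. TMM moved this comparison up by 0.64 against library totals, under which 13.6% instead of 56.8% of the calls without a block were higher in late cells. Under totals with the block Ftl1 did not pass (0.73, adjusted p = 0.14), and Tfrc, Slc11a2, Heph and Slc40a1 did.

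**Figure D3:**
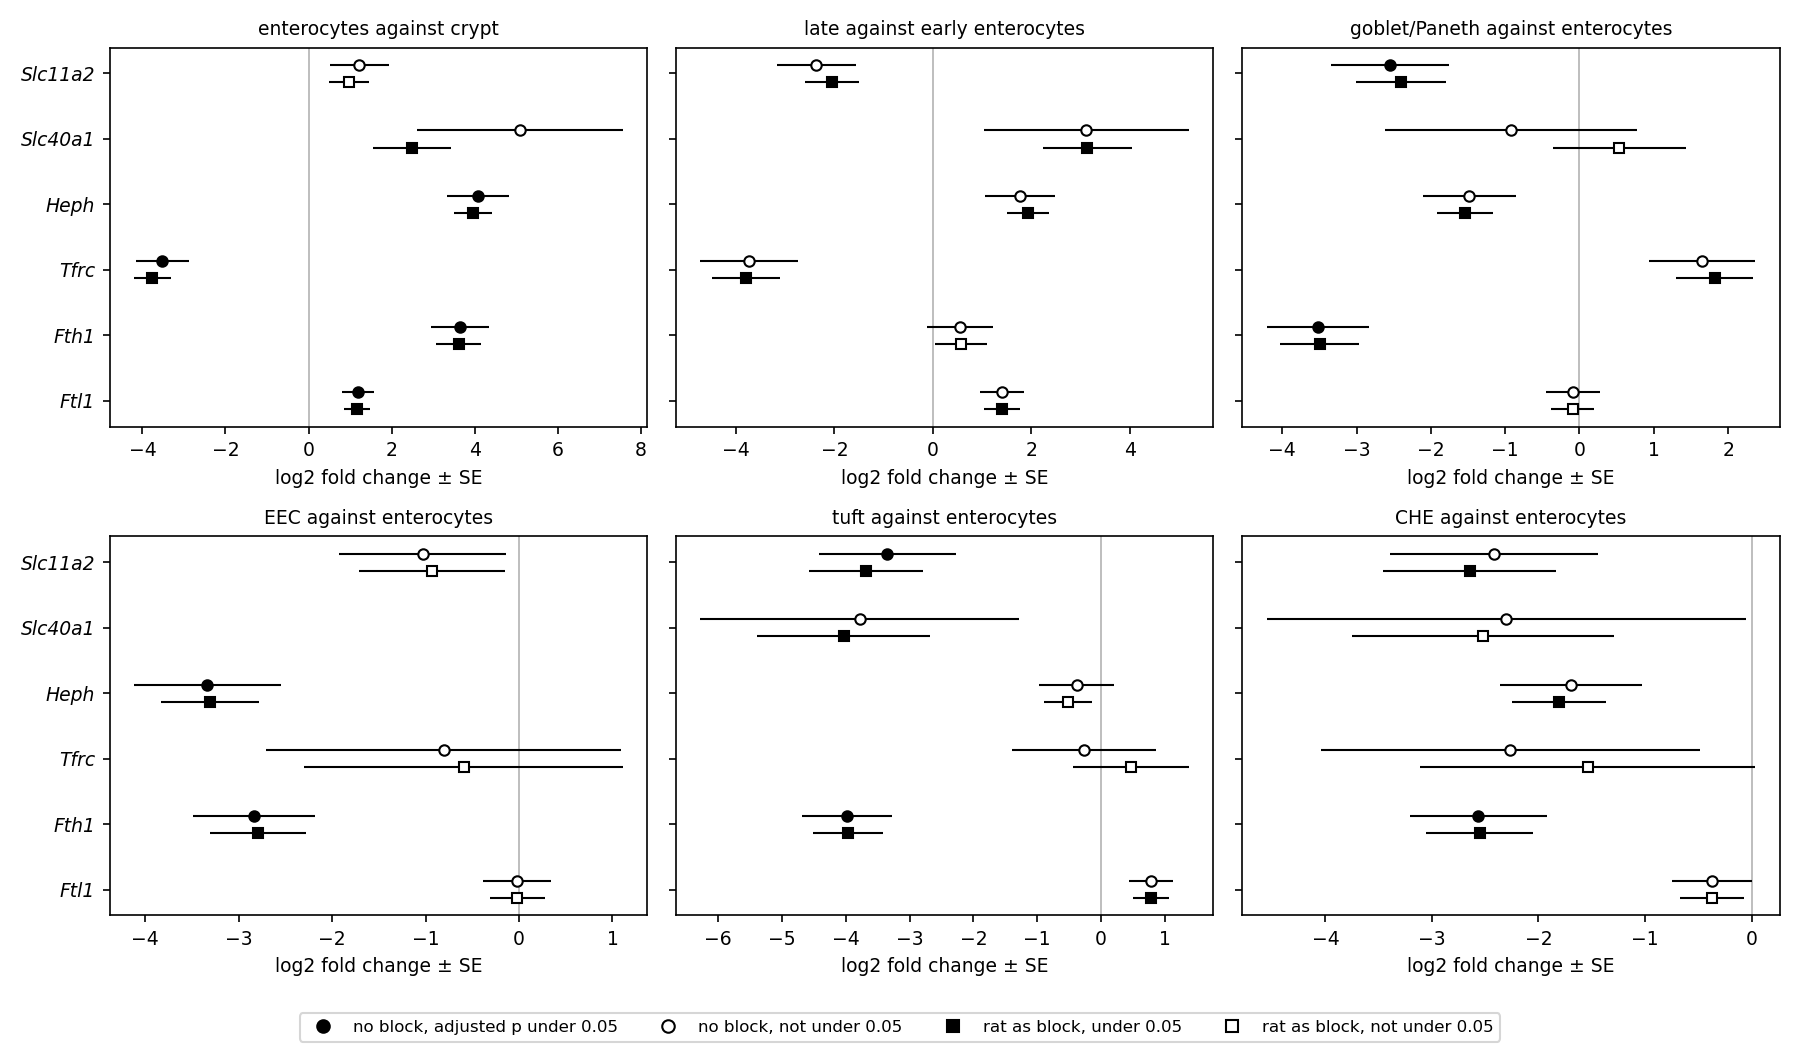
Log2 fold change ± SE (x axis) of the 6 genes tested in each of 6 comparisons of class sums from 2 rats, from edgeR with TMM scaling, without a block (circles) and with the rat as a block (squares). Filled symbols have an adjusted p under 0.05. Fth1 is lower in every secretory class than in enterocytes, while the calls between late and early enterocytes appear only with the block; Slc40a1 in EECs has no SE because both rats had 0 UMIs and is not drawn.

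In secretory cells Fth1 was below its level in every enterocyte group of both rats. Cycling secretory progenitors resembled crypt cells in level, with Tfrc at 61.5 and 46.7 CPM, Heph at 23.5 and 24.6 CPM, and Fth1 at 3145 and 2616 CPM. Slc11a2 had 14.9 and 7.37 CPM there and Slc40a1 1.51 and 12.3 CPM, the rat 2 values from 3 and 5 UMIs. No test was fixed for this class.

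Goblet/Paneth cells had 2590 and 1988 CPM of Fth1, against 16710 and 27407 CPM in enterocytes, and 5.27 and 5.84 CPM of Slc11a2. Both were called lower than in enterocytes by edgeR, Fth1 at -3.52 ± 0.69 (adjusted p = 0.0016) and Slc11a2 at -2.55 ± 0.79 (adjusted p = 0.028), which makes 2 of 6 beside 24.9% of all genes. With the block, where 38.4% of all genes were called, Heph (-1.54 ± 0.38, adjusted p = 0.0036) and Tfrc (1.82 ± 0.52, adjusted p = 0.0096) passed too. Tfrc had 18.5 and 7.79 CPM, so in rat 1 it lay above mid and late but below early enterocytes. Leukocyte-like cells of rat 2 had 2322 CPM of Fth1, more than its goblet/Paneth cells.

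The exporter had opposite orders in the rats. Slc40a1 had 10.5 CPM in goblet/Paneth cells of rat 1, above the 1.54 CPM of its enterocytes, but 56.4 CPM in rat 2, below the 110 CPM of its enterocytes. The TMM-scaled log2 differences were 2.79 and -1.13, and the comparison over both rats was not called (adjusted p = 0.75). The class was made of a Clca1-led cluster with 130 and 35 cells and a Zg16-led cluster with 38 and 103, so different clusters held most of it in the rats. Slc40a1 had 8.98 and 33.9 CPM in the Clca1-led cluster and 17.1 and 66.9 CPM in the Zg16-led cluster.

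Heph and Tfrc separated the goblet clusters in both rats. Heph had 33.5 and 53.9 CPM in the Clca1-led cluster and 147 and 152 CPM in the Zg16-led one. Tfrc had 22.9 and 24.7 CPM in the Clca1-led cluster and 0 UMIs in the Zg16-led one, which was at least 2.22-fold lower in rat 1 and at least 11.6-fold lower in rat 2. The clusters were drawn from the same cells and no test was run between them.

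EECs, the hormone cells, had 5373 and 3714 CPM of Fth1 and 27.8 and 38.5 CPM of Heph (5 and 6 UMIs). Both were lower than in enterocytes, Fth1 at -2.84 ± 0.66 (edgeR, adjusted p = 0.0065) and Heph at -3.34 ± 0.78 (adjusted p = 0.0071), 2 of 6 genes beside 20.8% of all genes, and the same 2 were called with the block, beside 27.1%. Slc40a1 had 0 UMIs in both rats. In rat 2 this placed it at least 5.72-fold below the enterocytes at a floor of 3 UMIs, whereas in rat 1 enterocytes themselves lay under the floor of 16.7 CPM and no fold can be given. Slc11a2 had 3 and 4 UMIs, Tfrc 0 and 1 UMI, and their directions differed between the rats. Ftl1 had 972 and 1488 CPM and was not called (adjusted p = 0.99). The direction of calls over all genes moved from 48.2% higher to 72.1% higher under library totals and to 66.6% with DESeq2.

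Tuft cells, the chemosensory cells, stood out in the light ferritin chain. Ftl1 had 2449 and 2723 CPM, which in CPM scaled by library totals was above every other class of either rat, of which the highest was 1488 CPM in EECs of rat 2. Scaled by TMM the order was different, since the tuft levels became 1629 and 2131 CPM beside 1650 and 1921 CPM in late enterocytes. Its log2 fold change against enterocytes was 0.78 ± 0.35 under TMM (edgeR, adjusted p = 0.12), and it passed with the block (0.78 ± 0.28, adjusted p = 0.037), with DESeq2 (1.01, adjusted p = 0.00049) and with scaling by totals (1.70, adjusted p = 0.0018). The TMM shift of this comparison was -0.86. Fth1 was lower than in enterocytes, at 2617 and 2654 CPM and -3.98 ± 0.71 (edgeR, adjusted p = 0.00085), so the chains lay in opposite directions in CPM.

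Slc11a2 had 1 UMI in tuft cells of rat 1 and 4 UMIs in those of rat 2 (12.9 and 3.81 CPM) and was called lower at -3.35 ± 1.08 (adjusted p = 0.034), which makes 2 of 6 genes beside 25% of all genes. Heph had 103 CPM (8 UMIs) and 465 CPM, the latter the highest level of any class of rat 2 under scaling by totals but below late enterocytes under TMM (364 against 607 CPM). Its fold change was -0.38 ± 0.59 (adjusted p = 0.69) and its sign turned under library totals. The enterocyte markers in tuft cells were higher in rat 2, as given above, and their part in the Heph level was not tested. They summed to 18793 and 33681 CPM there. The proximal genes, which share Fabp1 with that list, summed to 16486 and 30758 CPM in tuft cells and to 43572 and 24086 CPM in enterocytes. Tfrc had 0 and 5.72 CPM. Slc40a1 had 0 and 9 UMIs, and with the block, where 37% of all genes were called, it was lower, at -4.04 ± 1.35 (adjusted p = 0.027). With the block and totals together it missed the threshold (edgeR, -3.10, adjusted p = 0.055). Hemoglobin genes reached 22860 CPM in the tuft sum of rat 2 against 142 CPM in that of rat 1. Without hemoglobin-rich cells and hemoglobin genes, an alternative chosen after seeing the data, Slc11a2 missed the threshold (edgeR, adjusted p = 0.051), Ftl1 had 0.96 (adjusted p = 0.060) and Fth1 was called. Under library totals 80.7% instead of 49.9% of all calls were higher in tuft cells.

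CHEs, the CFTR-rich cells that the study was about, had 5198 and 5277 CPM of Fth1, above the goblet/Paneth, tuft and progenitor levels and below those of enterocytes. The rats were nearly equal only in these CPM scaled by library totals, since the levels scaled by TMM were 4408.5 and 5825.8 CPM. Fth1 was the only gene of the 6 called against enterocytes, at -2.56 ± 0.65 (edgeR, adjusted p = 0.016), beside 13.7% of all genes. Heph had 59.2 and 107 CPM and Slc11a2 0 and 7.56 CPM, and with the block both passed, at -1.80 ± 0.44 (adjusted p = 0.0066) and -2.65 ± 0.81 (adjusted p = 0.025), beside 21.3% of all genes. In rat 1 the floor of 3 UMIs stood at 44.4 CPM, above the 15.0 CPM of Slc11a2 in enterocytes. The 0 of Slc11a2 therefore gives no order in that rat. Under totals with the block Slc11a2 just missed the threshold (adjusted p = 0.051). Slc40a1 had 16 UMIs in rat 2 (15.1 CPM), below the enterocytes of that rat. In rat 1 it had 1 UMI, under the floor of 3 UMIs, so no order against enterocytes can be given there. Tfrc had 0 and 1 UMI. Hemoglobin genes summed to 104 and 3051 CPM in CHEs, and without them and hemoglobin-rich cells Fth1 was called at -2.53. Ftl1 had 844 and 883 CPM, with a fold change of -0.37 ± 0.37 (adjusted p = 0.60) whose sign turned under library totals. Under totals 70.3% instead of 49.8% of all calls were higher in CHEs.

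**Figure D4:**
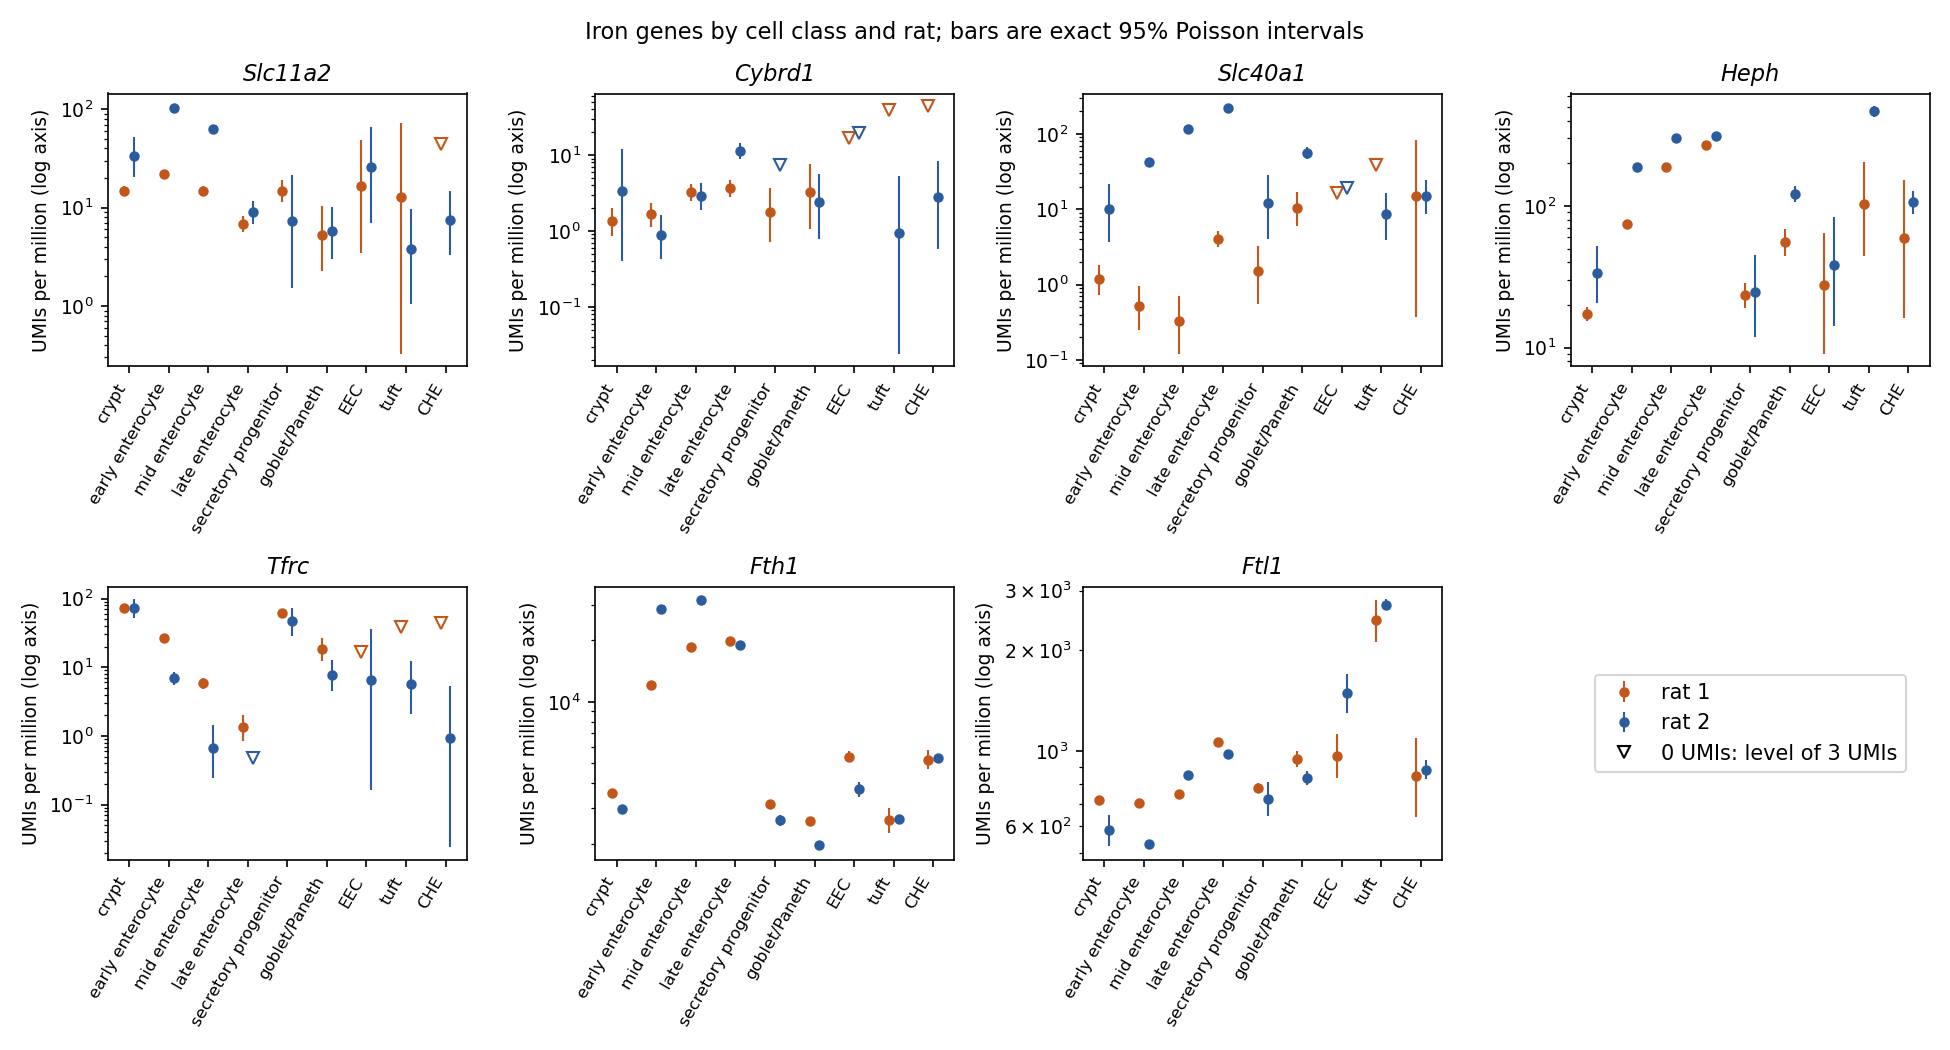
CPM (y axis, log scale) of each of the 7 genes in 9 cell classes (x axis) of rat 1 and rat 2, with exact 95% Poisson intervals, which cover counting error only; open triangles mark classes with 0 UMIs and stand at the level of 3 UMIs. The rats lie apart for Slc40a1 in all 3 enterocyte groups, Tfrc is highest in the crypt at about 73 CPM, and Ftl1, in these CPM scaled by library totals, is highest in tuft cells at 2449 and 2723 CPM.

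The same fits were read for 50 other genes of iron metabolism, of which 49 had a row and 37 were tested. Between enterocytes and crypt 13 of the 37 were higher and 5 lower in enterocytes by edgeR (48.6%, beside 44.6% of all genes), with a median log2 fold change of 0.73 against -0.09 for all genes under TMM, a direction that turned under library totals, where the medians were -0.16 and -0.95, 20 of the 37 lay below 0, and 8 were called higher and 12 lower. With the block 18 were higher and 7 lower (67.6%, beside 56.6%). Of 11 heme and alternative uptake genes tested, 6 were called under TMM without a block, all 6 higher. With the block 7 were higher and 1 lower, and under library totals 4 were higher and 3 lower. Slc46a1, the folate carrier that also moves heme, had 1.69 and 3.35 CPM in the crypt and 223 and 183 CPM in late enterocytes (6.56 ± 0.94, adjusted p = 0.00014). Abcg2, an exporter of heme and other compounds, was higher by 4.98 ± 0.73 (adjusted p = 0.00013), Flvcr2, a heme transporter, by 4.90 ± 0.75 (adjusted p = 0.00019), and the lysosomal cation channel Mcoln1 by 3.78 ± 0.63 (adjusted p = 0.00032).

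Bmp2 was higher in enterocytes by 5.12 ± 1.78 (adjusted p = 0.029), with 1.29 in rat 1 and 7.11 in rat 2. Slc25a37, the mitochondrial iron carrier mitoferrin, was called lower in enterocytes, with 6.46 and 10.1 CPM in the crypt and at most 1.67 CPM in any enterocyte group. Among the groups, 3 of 7 regulators (42.9%), 5 of 6 chaperone, ferritin turnover and reductase genes, 4 of 12 mitochondrial genes (33.3%) and 0 of 1 plasma gene were called, beside 44.6% of all genes. Higher and lower were 3 and 0 regulators, 3 and 2 chaperone group genes and 1 and 3 mitochondrial genes. Under library totals these were 2 and 1, 2 and 2, and 0 and 6. Between late and early enterocytes 0 of 37 were called without a block by edgeR, beside 1.73% of all genes. At an unadjusted p under 0.05 there were 18, and DESeq2 called 9, but the 1.73% does not apply to these rules. The share of all genes under the unadjusted rule was not counted, and DESeq2 called more of all genes than edgeR. With the block 20 were called (54.1%, beside 26.8% of all genes), 10 in each direction, and under library totals without a block 5, all 5 lower in late cells.

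In secretory classes most of the calls under TMM were lower than in enterocytes. Lower were 10 of 12 calls in goblet/Paneth cells, 13 of 16 in EECs, 14 of 14 in tuft cells and 10 of 11 in CHEs. The called shares of the 37 were 32.4%, 43.2%, 37.8% and 29.7%, beside 24.9%, 20.8%, 25% and 13.7% of all genes. The list's median log2 fold changes were -0.70, -1.47, -1.48 and -1.37, against 0.09, -0.27, -0.04 and -0.21 for all genes. With the block the calls were 14 lower and 4 higher in goblet/Paneth cells, 14 and 5 in EECs, 21 and 1 in tuft cells and 11 and 1 in CHEs. These made up 48.6%, 51.4%, 59.5% and 32.4% of the 37, beside 38.4%, 27.1%, 37% and 21.3% of all genes. Under library totals without a block the list's medians stayed below 0, at -0.48, -0.84, -0.64 and -0.94, and the calls were 7 lower and 3 higher, 5 and 5, 6 and 2, and 6 and 1 in the same classes. Slc46a1 was called lower in all 4 classes, and had 0 UMIs in EECs of both rats. Slc39a14, a zinc and iron importer, had 0 UMIs in EECs and at most 2.86 CPM in tuft cells and CHEs, and was called lower in all 3 classes. Slc39a8, a relative of it, was called lower in the same 3, by -3.45 ± 0.75 in EECs, -4.84 ± 0.75 in tuft cells and -2.83 ± 0.64 in CHEs (adjusted p = 0.0041, 0.00029 and 0.0085).

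Of the heme enzymes, Blvra, which reduces biliverdin, stood out in CHEs. It had 385 and 240 CPM in CHEs, and from 4.53 to 63.6 CPM in the enterocyte groups, a log2 fold change of 3.11 ± 0.48 (edgeR, adjusted p = 0.0005) with 3.16 and 3.12 in the single rats. It was the only call of the list higher in CHEs. Tf, the transferrin gene, had 0 CPM and 0.945 CPM in CHEs and was called lower (-4.46 ± 1.05, adjusted p = 0.010). Blvrb, the relative that acts on flavins, was called lower in tuft cells (-3.28 ± 0.81, adjusted p = 0.0078), as were Aco1 (-3.29 ± 0.87, adjusted p = 0.012) and the heme exporter Flvcr1, which had 0 UMIs there. Flvcr1 also had 0 UMIs in EECs and CHEs of both rats. In enterocyte groups it had at most 7.21 CPM in rat 1 and 3.35 CPM in rat 2. A count of 3 UMIs in the tuft sums stood at 38.7 and 2.86 CPM. No order can therefore be given in rat 1, and the rat 2 levels lay close to the floor. Flvcr2 was called lower in goblet/Paneth cells, EECs and CHEs, and Abcb6, a porphyrin carrier, in EECs. In goblet/Paneth cells Abcg2 (-4.70 ± 0.72, adjusted p = 0.00024) and Mcoln1 (-3.52 ± 0.62, adjusted p = 0.00077) were lower. Hfe, a partner of the transferrin receptors, was higher there (3.48 ± 0.96, adjusted p = 0.013) at levels of 7.25 and 1.95 CPM (11 and 4 UMIs), and Slc25a37 was called higher on 5 and 1 UMIs.

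The genes most like each member were taken by Pearson correlation of log2 CPM over the 18 class sums, among 10164 genes. This is a description, since the sums of a rat share its library and its depth. For Slc11a2 they were Dhrs7 (0.95), Irf8 (0.90) and Wipf1 (0.90), and for Heph RGD1561149 (0.97), Syap1 (0.95) and Cap1 (0.95). For Slc40a1 they were Trpv6 (0.87), the apical calcium channel, Tcf7l2 (0.87) and St14 (0.85). Trpv6 shared the gap between the rats, with 0.55 and 87.8 CPM in late enterocytes. For Tfrc they were Tma16, Wdr3 (both 0.95) and Ccnjl (0.94), for Fth1 Me1, Ugt1a7c and Xpnpep1 (each 0.97), and for Ftl1 Dnajb9 (0.93), AC134224.1 (0.90) and Son (0.88). Dnajb9, an endoplasmic reticulum chaperone, was highest in tuft cells, at 155 and 332 CPM.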

How the data were processed

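The authors deposited raw UMI counts per gene and barcode, 1 matrix per rat, made with Cell Ranger (3.1.0 and 5.0.1 per the file headers, v.5.0 in the paper) on Rnor6 and limited to barcodes called as cells. The matrices held 12033 barcodes with 99986348 UMIs in rat 1 and 8252 with 66469907 UMIs in rat 2. Cells with over 200 and under 5800 genes, over 5000 UMIs and at most 40% mitochondrial UMIs were kept (5988 and 2230), integrated and clustered with Seurat 5.3.0 (R 4.3.3), with 2000 variable genes, 20 components and resolutions of 0.3 and 0.5. Clusters with over 25% Ptprc-positive cells or high hemoglobin, cells with at most 10 UMIs of epithelial genes and, outside goblet/Paneth clusters, cells with over 5% defensin UMIs were left out. Names came from marker lists with cutoffs set after the clusters were seen, so they may differ from those of the study. Scrublet called 116 and 2 doublets, which were kept; the caller did not work in rat 2.

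UMIs were summed per rat and class (18 sums, 9 classes) and tested in 1 model with edgeR 4.0.16 (TMM, default filter, quasi-likelihood test, Benjamini-Hochberg threshold 0.05), checked on simulated counts. The simulated counts held no difference between rats and as many genes raised as lowered. That check therefore does not cover the pairing by rat or the shift by TMM. DESeq2 1.42.0 was an alternative. Enterocytes are the mean of the early, mid and late groups. The fits treat these groups of a rat as separate sums, although they came from the same animal. Without the block the SEs and p-values make no allowance for this. They may be too small where the mean of these groups is set against another class. Between late and early groups of the same animals they may be too large. The block removes only a constant difference between the rats, so with it the groups of a rat still count as separate sums. Every class was sampled from both animals, so rat numbers pair the sums. Over 36 pairs of classes the deviations between rats correlated with a median of 0.218 and a range of 0.0831 to 0.782. Fold changes per rat are log2 CPM differences with a prior count of 2 and no test. Intervals are exact Poisson intervals at 95%, and they and the floors of 3 UMIs cover counting error only.

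The members and lists were chosen with earlier results of these data known. Named were the members, up to 6 other iron genes per comparison with the largest absolute fold change among those called with the same direction in both rats, and the 3 genes most alike. Regional genes came from the marker lists, and Epas1, Hmox1, Ireb2, Aco1, Ncoa4, Hif1a and Steap3 were named after their values were seen.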

Additional observations from a re-analysis of the deposited data

Results flagged for a closer look

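The barcodes outside the limits on cells entered no comparison, 6045 in rat 1 and 6022 in rat 2, and all 7 genes were above a floor of 3 UMIs there. Values are per 1000000 UMIs that were not mitochondrial, since mitochondrial UMIs made up 25.3% and 44.9% of these barcodes. Slc40a1 had 1.23 in rat 1 and 76.7 in rat 2, so the gap between the rats was present in barcodes that the cell classes did not use. Slc11a2 had 15.5 and 60.4, and Tfrc 38.8 and 6.47. Heph had 93.9 and 198, Fth1 5726 and 9811, Ftl1 754 and 618, and Cybrd1 1.75 and 3.46 in rat 1 and rat 2. The cell types of these barcodes were not determined.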

How the results depend on the processing

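Only 2 rats were sampled, and they stood apart. All classes shared the same model, so no p rests on the spread of the compared classes alone. Without the block, each p rests on the spread between the 2 rats within classes, pooled over all classes. With the block a constant difference between the rats is removed, so those p-values rest on how class differences vary between the rats. The rarest sums rest on few cells (crypt and EECs of rat 2, tuft cells and CHEs of rat 1). The count between late and early enterocytes depended most on the settings. Of all genes 176 were called, against 866 with DESeq2, 1526 without a filter on low counts, 2723 with the rat as a block, 966 with library totals, 3385 with totals and the block, 801 at 20% mitochondrial UMIs at most, 37 without an upper limit on genes per cell, 14 with cells of few epithelial UMIs kept and 24 with a villus score from tip genes alone. Of the 6 iron genes, 0 were called there, against 2 with DESeq2, 4 without the filter, 5 with the block, 2 with totals, 4 with totals and the block and 2 at 20% mitochondrial UMIs. In goblet/Paneth cells 3908 genes were called with the block (2535 without), and 4 iron genes (2 without) with the block, without the filter or with totals and the block, and 1 without the gene limit. In EECs 1275 genes were called after thinning (2115 before). In tuft cells 4632 genes were called with totals and the block (2539 without), and 4 iron genes with the block but 1 at 20% mitochondrial UMIs, after thinning or without hemoglobin. In CHEs 2167 genes were called with the block (1391 without), and of the iron genes 4 without the filter, 3 with the block and 2 with totals and the block. With the pairing by rat the same 2 iron genes were called in EECs, and between enterocytes and crypt Slc40a1 was added to the 4 calls.

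Signs turned only for fold changes that the TMM fit without a block did not call. For Fth1 between late and early enterocytes these were -0.064 with totals and -0.053 with totals and the block. For Slc40a1 in goblet/Paneth cells they were 0.53 with the block and 0.87 with totals and the block. For Ftl1 in goblet/Paneth cells they were 0.069 with DESeq2, 0.16 with totals with or without the block, 0.10 without mitochondrial genes, 0.054 after thinning, 0.12 at resolution 1.0 and 0.089 without hemoglobin. For Ftl1 in EECs they were 0.39 with DESeq2, 0.64 with totals, 0.65 with totals and the block, 0.057 at 20% mitochondrial UMIs, 0.30 without mitochondrial genes or at resolution 1.0 and 0.31 without hemoglobin. For Heph in tuft cells they were 0.52 with totals and 0.38 with totals and the block. For Tfrc in tuft cells they were 0.47 with the block, 0.49 with totals, 1.30 with totals and the block, 0.027 without mitochondrial genes, 0.32 after thinning, 0.037 at resolution 1.0 and 0.080 without hemoglobin. For Ftl1 in CHEs it was 0.12 with totals, with or without the block. The cause of these differences was not tested. Library totals, alone or with the block, leaving out hemoglobin and leaving out crypt cells with leukocyte UMIs were chosen after seeing the data. Without an upper limit on genes no EEC class was found, so that comparison was not run there.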
